A study of Mus musculus with 4 samples.

Results

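The genes described here encode the contents of the cytotoxic granule: the pore protein perforin (Prf1), 8 granzymes (Gzma, Gzmb, Gzmc, Gzmd, Gzme, Gzmf, Gzmk and Gzmm) and the granule membrane protein Nkg7. These 10 genes were taken by name from the 30731 genes that the tables of all 4 libraries listed, and all 10 were found. All 10 passed the filter on low counts, which asked for enough reads in 1 library only. The libraries came from mouse innate lymphoid cells, lymphocytes without a rearranged antigen receptor. Natural killer (NK) cells, with 1 library, came from the spleens of pooled wild-type C57BL/6 mice aged 8 to 12 weeks, and no culture is given for them. Group 2 innate lymphoid cells (ILC2), with 1 library, came from the bone marrow of wild-type mice of the same strain and age, also pooled, and were expanded with IL-33, IL-25, IL-7 and IL-2 at 10 ng/ml. MNK-3, with 2 libraries, is a single cell line resembling group 3 cells, made from day 15 thymocytes of fetal NIH-Swiss mice and cultured with IL-15 plus IL-7 at 10 ng/ml. No knockout, transgene or drug treatment separates the groups. Cell type cannot be told apart from tissue, culture and pooling of animals, and for MNK-3 also from strain and from the list of genes counted.

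A killer lymphocyte holds perforin and granzymes in granules that fuse with its membrane where it touches a target cell. Perforin opens pores in the target's membrane, and granzymes, which are serine proteases, pass through and cleave proteins that start cell death. NK cells are the innate lymphocytes best known for this route, and resting mouse NK cells are known to hold much messenger RNA for granzyme B and perforin while holding little of the proteins. The libraries measure RNA and not protein. As they are bulk samples, fewer cells expressing a gene and less RNA per cell cannot be told apart.

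The genes lie in several places of the mouse genome (mm10/GRCm38, gene models of GENCODE M21). Prf1 (ENSMUSG00000037202) and Gzmm (ENSMUSG00000054206) are on the plus strand of chromosome 10, at chr10:61297833-61304680 and chr10:79689020-79695261. Gzma (ENSMUSG00000023132, chr13:113093825-113100981) and Gzmk (ENSMUSG00000042385, chr13:113171608-113225908) are neighbours on the minus strand of chromosome 13. The other granzymes lie together on the minus strand of chromosome 14, with Gzmb (ENSMUSG00000015437) at chr14:56258838-56262260 and Gzmc (ENSMUSG00000079186) at chr14:56231441-56234656. Nkg7 (ENSMUSG00000004612) is at chr7:43437073-43438249 on the plus strand.

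The 250 bases before the start of 4 genes are shown, because these genes set the libraries apart: Prf1, Gzma and Gzmb in NK and Gzmc in MNK-3. They are from RefSeq on GRCm38.p6, read along each gene's own strand. Their positions are chr10:61297586-61297835 (plus) for Prf1 and chr13:113100982-113101231 (minus) for Gzma. Those of Gzmb and Gzmc are chr14:56262335-56262584 and chr14:56234658-56234907, both minus. Capitals mark the words searched for: TCACACC (bound by T-box factors), TGTGGT (bound by Runx factors) and TGANTCA (bound by AP-1). ACCACA is TGTGGT on the other strand.
Prf1: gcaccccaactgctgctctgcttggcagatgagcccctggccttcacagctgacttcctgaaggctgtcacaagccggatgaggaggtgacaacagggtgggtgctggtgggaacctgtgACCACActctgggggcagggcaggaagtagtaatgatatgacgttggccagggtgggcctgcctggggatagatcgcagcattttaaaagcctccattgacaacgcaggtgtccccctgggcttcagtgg
Gzma: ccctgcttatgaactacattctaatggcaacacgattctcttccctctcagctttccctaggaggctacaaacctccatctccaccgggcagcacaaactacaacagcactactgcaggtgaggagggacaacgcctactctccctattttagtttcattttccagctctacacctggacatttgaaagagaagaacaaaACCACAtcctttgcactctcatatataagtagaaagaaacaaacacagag
Gzmb: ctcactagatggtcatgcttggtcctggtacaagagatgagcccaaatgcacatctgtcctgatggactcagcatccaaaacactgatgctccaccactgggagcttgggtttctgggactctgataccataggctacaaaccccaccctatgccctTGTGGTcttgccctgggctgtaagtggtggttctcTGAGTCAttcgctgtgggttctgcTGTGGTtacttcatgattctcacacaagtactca
Gzmc: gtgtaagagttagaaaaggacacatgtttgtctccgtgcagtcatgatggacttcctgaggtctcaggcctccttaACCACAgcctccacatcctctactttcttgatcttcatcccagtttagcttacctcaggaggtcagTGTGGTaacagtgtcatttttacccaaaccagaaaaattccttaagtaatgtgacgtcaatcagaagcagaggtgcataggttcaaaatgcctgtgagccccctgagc
Prf1 and Gzma each held 1 Runx word, Gzmc held 2, and Gzmb held 2 with 1 AP-1 word. Both strands were searched in windows of 300 bases, from 250 before to 50 after the start, and no marked words overlap each other. The 10 genes have 11 windows, as Gzmm has 2. A Runx word was present near the start of 9 of the 10 genes (Gzmk had none in this window), in 9 of 11 windows, against 16.8% of 32851 promoters of that length. The T-box word was found for 3 genes (Gzmk, Nkg7 and Gzmm, the last in its second window), in 3 of 11 windows, against 3.98% of promoters. The AP-1 word was found for Gzmb alone, in 1 of 11 windows, against 7.81%. The clustered granzymes share ancestry, so their windows are not independent, and a word match is not evidence of binding.

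Library depth and identity bear on every value below. Shared genes held 4637812 reads in NK and 9298162 in ILC2. The MNK-3 libraries held 25617762 (replicate 1) and 15177345 (replicate 2), and levels are given as counts per 1000000 shared-gene reads (CPM). At 3 counts, the limit that a count of 0 allows, NK has 0.647 CPM, ILC2 0.323, and MNK-3 replicates 1 and 2 have 0.117 and 0.198. The summed CPM of 7 NK markers was 4903 in NK and 30.7 to 106 in the other libraries, that of 7 ILC2 markers 5587 in ILC2 and 101 to 222 elsewhere, and that of 6 ILC3 markers 1869 and 2734 in MNK-3 and 94.2 and 219 elsewhere. The ILC2 marker Il17rb had only 3.98 CPM in ILC2, against 25.8 in MNK-3 replicate 1 and 3.88 in NK, and the ILC2 marker Klrg1 was higher in NK (89.7 CPM) than in ILC2 (20.8). The ILC3 marker Il22 was at 7.73 and 8.76 CPM in MNK-3. Reads outside genes made up 75.8% in MNK-3 replicate 1 and 47.1% in NK, with 24.3% for MNK-3 replicate 2 and 23.1% for ILC2. NK had a read in 76.0% of shared genes although it was the shallowest library. In MNK-3 replicate 1, 74.2% of the 4975 genes with no read in the other 3 libraries had a count, with a median of 0.460 and a 95th percentile of 3.12 CPM per kilobase (kb) of exon. This level is the background against which low values in MNK-3 replicate 1 are set.

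Perforin was abundant in NK and low in the other libraries. Prf1, which encodes the pore, reached 1495 CPM in NK and 4.41 in ILC2, with 5.23 and 0.329 in MNK-3 replicates 1 and 2. The NK level was 339 times that of ILC2, 286 times that of MNK-3 replicate 1 and 4538 times that of replicate 2, the last with a counting interval of 1944 to 13979 (95%) since replicate 2 had 5 reads. ILC2 and MNK-3 replicate 1 were near each other, and the MNK-3 pair differed 15.9-fold. Per kb of exon, Prf1 was at 2.02 CPM in MNK-3 replicate 1, below the 95th percentile of genes with no read elsewhere.

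Nkg7, a membrane protein of the granule needed for efficient degranulation, followed the same order in NK against the rest. NK had 530.4 CPM, ILC2 0.108 (1 read), and MNK-3 replicates 1 and 2 had 2.46 and 0.857. NK was 216 and 619 times the MNK-3 libraries, and the ratio to ILC2 was 4932 (counting interval 884 to 194880). Per kb, Nkg7 and Prf1 were close in NK, at 580 and 579 CPM per kb.

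Gzma, a protease that cleaves after basic residues, was the most abundant of the 10 genes in NK. Its level was 2287 CPM in NK and 2.26 in ILC2. MNK-3 had 6.99 in replicate 1 and 0.0659 in replicate 2, the latter from 1 read. Per kb of exon it was at 2273 CPM in NK, rank 3 of 30692 genes with coordinates, while Nkg7 ranked 21, Prf1 22 and Gzmb 42. Gzma was 1012 times higher in NK than in ILC2 and 327 times higher than in MNK-3 replicate 1. Against replicate 2 the ratio of 34705 rests on that single read (counting interval 6228 to 1370910).

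Gzmb, which cleaves after aspartate and activates caspases, was by library totals the member with the steadiest level in MNK-3. Scaling by TMM or median-of-ratios factors, which divide CPM, widens its gap, and Gzmb is then not the steadiest. These factors were 1.40 and 1.85 for replicate 1, and 0.848 and 0.801 for replicate 2. NK had 572 CPM and ILC2 4.73, and the MNK-3 replicates had 9.52 and 11.6. NK exceeded ILC2 121-fold and the MNK-3 libraries 60.1-fold and 49.4-fold. The order of ILC2 and MNK-3 depended on the scaling. The log2 ratio of ILC2 to the MNK-3 mean was -0.77 under TMM and -0.56 under median-of-ratios factors. With the latter (1.85 for replicate 1, 0.730 for ILC2), MNK-3 replicate 1 was not above ILC2. By library totals MNK-3 was above ILC2 in both libraries, by 2.01 times (counting interval 1.46 to 2.84) and 2.45 times (1.75 to 3.49). The fit, in which ILC2 has 1 library, gave no call for that difference (log2 ILC2 minus MNK-3 -1.08, SE 2.80, adjusted p = 1.00 by limma voom).

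Gzmc, the gene next to Gzmb in the cluster, had the reverse pattern. It stood at 0.647 CPM in NK (3 reads) and 0.215 in ILC2 (2 reads), against 20.6 in MNK-3 replicate 1 (527 reads) and 30.4 in replicate 2 (462 reads). The MNK-3 libraries were 31.8 times (counting interval 10.8 to 155) and 47.1 times (16 to 229) the NK level. Against ILC2 they were 95.6 times (26.3 to 792) and 141.5 times (39.0 to 1172). Replicate 2 exceeded replicate 1 by 1.48 times. Gzmc was the member with the most reads in both MNK-3 libraries, and per kb it ranked 2314 and 1614 of 30692 there and 13583 in NK.

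Gzmk and Gzmm, the remaining members outside the cluster, were low everywhere. Gzmk, like Gzma a tryptase-like protease, had 6.68 CPM in NK, 7.30 in MNK-3 replicate 1, and no read in ILC2 or MNK-3 replicate 2. The 31 reads in NK gave 20.7 times the 3-count limit in ILC2 and 33.8 times that in MNK-3 replicate 2, and the exact counting intervals of these ratios begin at 15.9 and 25.9. Gzmk overlaps Esm1 on the opposite strand, and the strand setting of the counting is not given in the sources used here, so its reads may belong to either gene. Gzmm, which prefers to cleave after methionine or leucine, had 7.33 CPM in NK and 0.753 in ILC2, and 11.2 and 2.11 in MNK-3 replicates 1 and 2. NK thus lay between the MNK-3 libraries for Gzmm.

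**Figure D1:**
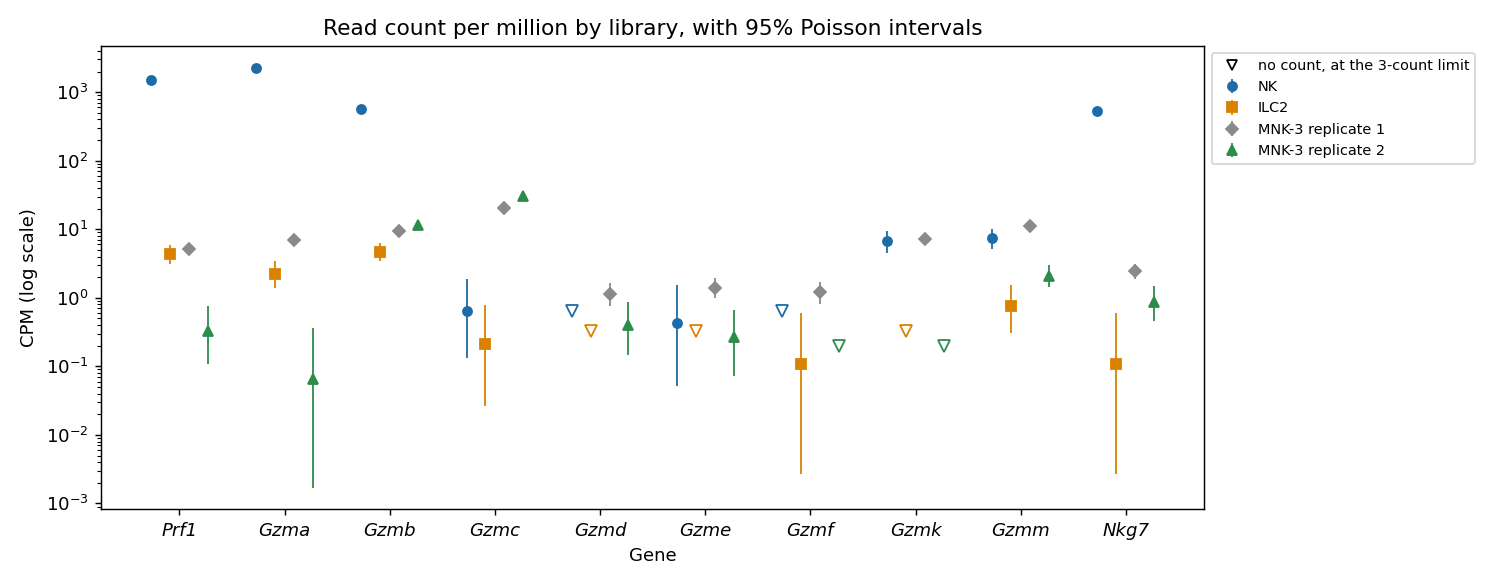
CPM on a log axis for each of the 10 genes, 1 point for each library, with 95% Poisson intervals that cover counting error only; open triangles mark no read, drawn at the 3-count limit. Prf1, Gzma, Gzmb and Nkg7 sit at 530.4 CPM or above in NK and at 11.6 or below elsewhere, and Gzmc sits at 20.6 and 30.4 CPM in the MNK-3 libraries and below 1 CPM in NK and ILC2.

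Gzmd, Gzme and Gzmf, granzymes of the chromosome 14 cluster whose substrates are less well known, were at or near no reads. Gzmd had no read in NK or ILC2, 1.13 CPM in MNK-3 replicate 1 and 0.395 in replicate 2. Gzme had 0.431, 0, 1.41 and 0.264 CPM in NK, ILC2, and MNK-3 replicates 1 and 2, and Gzmf had 0, 0.108, 1.21 and 0. In MNK-3 replicate 1 all 3 genes lay below the 95th percentile of genes with no read elsewhere. At most 6 reads supported any of them in another library, and they passed the filter on low counts through replicate 1 alone. Their sequences are also hard to separate. Of the 38-base words in the transcripts, the length of 1 read, 31.2% of Gzmd, 32.3% of Gzme and 27.3% of Gzmf also occur in another gene, against 10.9% of Gzmc, 0.858% of Gzmb and none of Prf1, Gzma, Gzmk, Gzmm and Nkg7. Gzmd and Gzme are 94.8% identical over their coding bases, while Gzmb and Gzmc are 76.6% identical. The 38 bases below, at positions 349 to 386 of the Gzmd coding sequence in GENCODE M21, show why a read can fail to choose between genes, since Gzmd, Gzme and Gzmf all hold them.
Gzmd, Gzme and Gzmf: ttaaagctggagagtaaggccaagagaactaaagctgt
Gzmf overlaps the antisense gene Gm4022. Both strands were searched for shared words, and 117 of the 241 shared 38-base words of Gzmf occur in Gm4022. How reads with more than 1 match were handled is not given in the sources used here, and the tables list 0 reads that were not unique, so counts of these 3 genes are uncertain.

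The balance among granzymes was different in each kind of cell. Summed over the 8 granzymes, the level per kb was 2683 CPM in NK, 6.41 in ILC2, and 53.5 and 44.3 in MNK-3 replicates 1 and 2, so NK was 50.1 and 60.5 times MNK-3. Gzma made up 84.7% of that sum in NK and Gzmb 14.9%. Gzmc made up 43.0% and 76.8% in the MNK-3 libraries, against 0.0270% in NK. Gzmb made up 12.4% and 18.2% of the MNK-3 sums, and Gzma 13.0% in replicate 1 but 0.148% in replicate 2. In ILC2 the sum rests on 75 reads, of which Gzmb took 51.4% and Gzma 35.0% per kb. With 1 library each for NK and ILC2, these shares have no replicate check outside MNK-3.

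**Figure D2:**
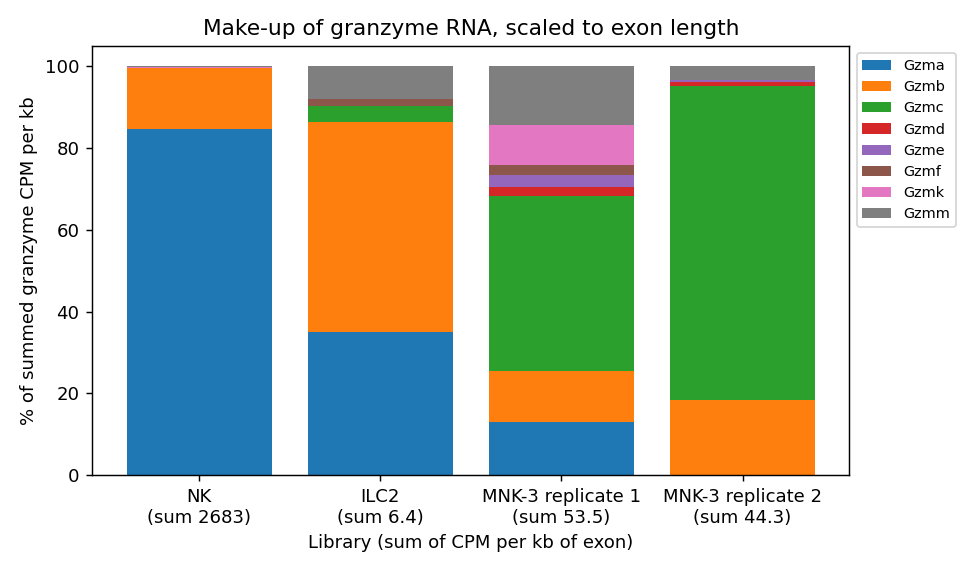
Share of the summed granzyme level (CPM per kb of exon, in percent) that each granzyme holds in each library, with the sum under each bar. Gzma fills 84.7% of the NK bar, and Gzmc is the largest part of both MNK-3 bars at 43.0% and 76.8%.

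Between NK and MNK-3, 4 of the 10 genes were called and all 4 were higher in NK. The fit was limma voom over all 4 libraries, and a call is an adjusted p (Benjamini-Hochberg, over 25283 genes) below 0.05. The log2 difference was 9.61 for Prf1 (SE 2.47, adjusted p = 0.00592), 10.88 for Gzma (SE 3.06, adjusted p = 0.0190), 5.82 for Gzmb (SE 0.633, adjusted p = 2.14e-17) and 8.29 for Nkg7 (SE 2.38, adjusted p = 0.0247). Across all genes tested, 2.04% were called higher in NK and 0.289% lower. Gzmc was not called (log2 -4.98, SE 6.12, adjusted p = 1.00), although both MNK-3 libraries lay above NK. A size rule without a test asked for a 4-fold difference and 10 CPM in the higher group: by it, Prf1, Gzma, Gzmb and Nkg7 were higher in NK and Gzmc was lower, against 1.65% of all genes higher and 6.04% lower. The median log2 ratio of the 10 genes was 0.46 (CPM plus 0.5, MNK-3 as the mean of its libraries), beside -0.66 over all genes. It was 2.72 without MNK-3 replicate 1, beside 0 over all genes, and -0.35 without replicate 2, beside -1.11. Only MNK-3 has replicates, so each SE rests on the spread of that pair pooled over genes, which may be technical. With no filter on low counts only Gzmb was called, and with scaling set by abundant genes none of the 10 was, Gzmb included. No call thus held in every setting. With factors from abundant genes the log2 difference for Gzmb was 5.72, beside 5.82 by library totals, and why its call was lost was not tested.

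Between ILC2 and MNK-3, limma voom called 0 of the 10 genes, and 0 had an unadjusted p under 0.05. The limma trend fit called 0 as well, beside 2247 of 25283 genes (765 higher in ILC2, 1482 lower). Across all genes, voom called 2.37% higher in ILC2 and 0.902% lower. Gzmc had the largest fitted difference (log2 -6.47, SE 6.39, adjusted p = 1.00) and was the single member lower by 4-fold or more at 10 CPM, against 5.2% of all genes lower and 1.42% higher. With MNK-3 replicate 1 alone, Gzmm also passed that size rule, since it is at 11.2 CPM there and 2.11 in replicate 2. The median log2 ratio of the 10 genes was -1.38, beside -0.88 over all genes.

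Between NK and ILC2, limma voom called 0 of the 10, although Prf1, Gzma, Gzmb and Nkg7 were each over 100-fold apart. The adjusted p was 0.184 for Prf1 (log2 8.39, SE 2.85), 0.471 for Gzma (log2 9.95, SE 3.97), 0.464 for Gzmb (log2 6.90, SE 2.74) and 1.00 for Nkg7 (log2 11.68, SE 6.79). Prf1, Gzma and Gzmb had an unadjusted p under 0.05, and the limma trend fit called those 3 and Nkg7. Across all genes, voom called 0.819% higher in NK and 0.479% lower. Limma trend called far more, 2030 of 25283 genes (798 higher in NK, 1232 lower). By size these 4 genes were higher in NK, against 2.24% of all genes, and none of the 10 was lower, against 3.12%. The 3 comparisons share libraries, so their values are not independent of each other.

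Gzmb, Gzmc, Gzmd, Gzme and Gzmf stand in a row of serine protease genes, and only 3 genes of the row reached 10 CPM in any library. Gzmb lies at 1 end, the end of Gzmc is 27.6 kb away, and Cma1, at the other end, is 317.6 kb away. Cma1, which encodes a mast cell chymase, had 159.8 CPM in NK and 0 in ILC2, and 1.95 and 0.0659 in MNK-3 replicates 1 and 2. The 10 further protease genes of the row, 8 of them tested, gave 0 calls in each comparison by limma voom. Of all genes, 0.289% to 2.37% were called in each direction, so 0 of 8 does not set the row apart. By voom 1 gene, Cma1, had an unadjusted p under 0.05, between NK and MNK-3 (adjusted p = 0.615). The limma trend fit called 0 as well, beside 2030 to 3058 of 25283 genes in the 3 comparisons. Voom with median-of-ratios factors called Cma1 between NK and MNK-3. The other mast cell and basophil markers gave no such level in NK: Mcpt8 and Fcer1a had no read, Mcpt4 had 0.216 CPM, Cpa3 0.431, Tpsb2 0.647 and Ms4a2 1.08. Mcpt8, a basophil protease, was highest in ILC2, at 2.37 CPM, and Mcpt4 highest in MNK-3 replicate 1, at 1.37. Between Cma1 and Gzmc, the 12 genes of the row did not exceed 2.37 CPM in any library.

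**Figure D3:**
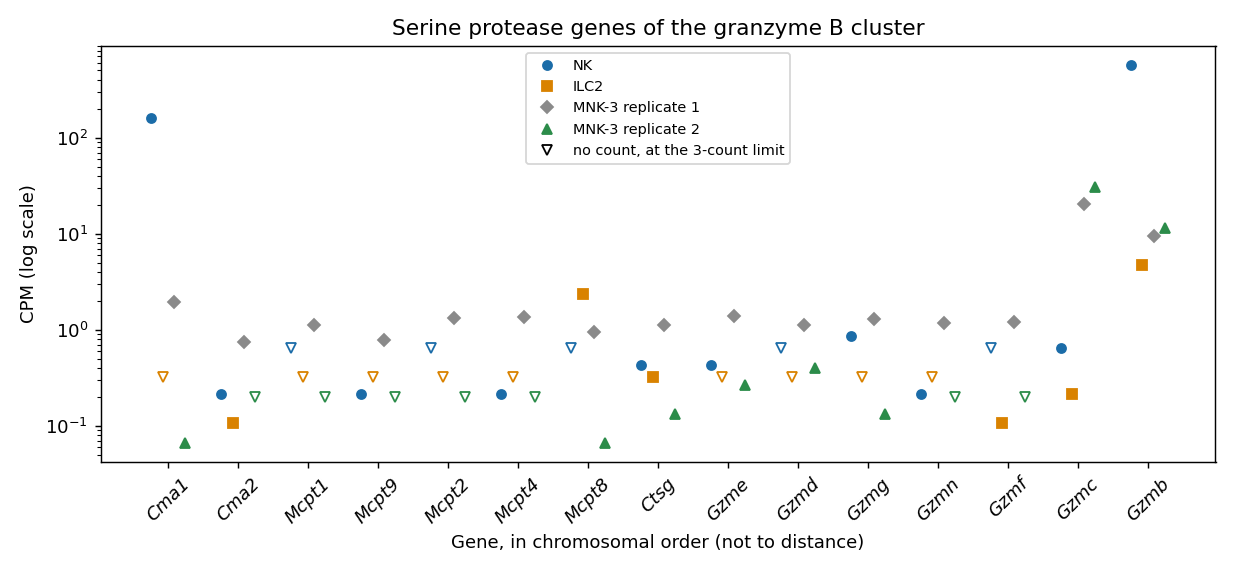
CPM (log axis) of the 15 protease genes of the chromosome 14 row, placed in their order along the chromosome and not to distance, 1 symbol for each library, with open triangles for no read. Gzmb and Cma1, 317.6 kb apart, are high in NK, and Gzmc, 27.6 kb from Gzmb, is high in MNK-3.

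MNK-3 replicate 1 carried low counts of many genes that replicate 2 lacked, and several granzymes were among them. Of 6074 genes chosen for having no read in NK or ILC2, 27.6% were at 1 CPM or more in replicate 1 and 0.840% in replicate 2. Their median was 0.429 CPM in replicate 1 and 0 in replicate 2. Set against genes with no read in the other libraries, Gzma, Gzmb, Gzmc, Gzmk and Gzmm lay above the 95th percentile in replicate 1, and the other 5 did not. Of those 5, Nkg7 was at the 94.0th percentile and Gzmd at the 78.4th. Gzmb and Gzmc were the 2 members at over 5 CPM in both libraries, and for both the higher value was that of replicate 2.

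**Figure D4:**
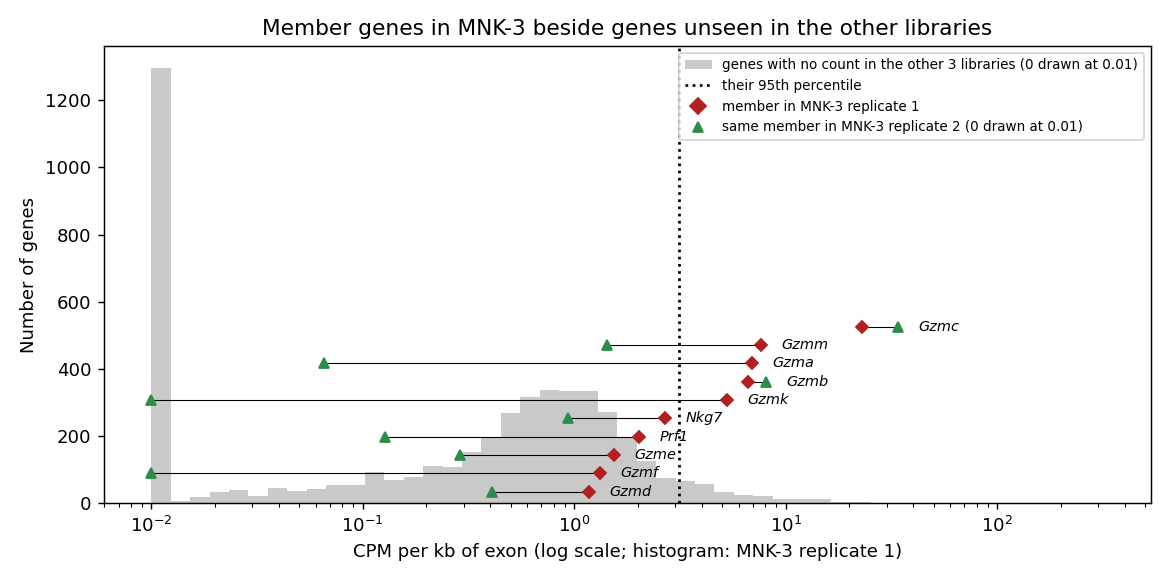
Histogram of the 4975 genes without reads in the other libraries by their level in MNK-3 replicate 1 (CPM per kb of exon, log axis; number of genes on the y axis), with their 95th percentile dotted and the 10 genes drawn over it at arbitrary heights, replicate 1 as diamonds and replicate 2 as triangles. Gzmc lies to the right of the 95th percentile of 3.12 CPM per kb in both libraries, as does Gzmb at a lower level, while Gzma, Gzmk and Gzmm do so in replicate 1 alone. That percentile describes replicate 1 only, since the genes were chosen for having no read in replicate 2, so it is not a background for the triangles.

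Genes that process, pack or restrain granzymes were also compared, as a list of 16. Between NK and MNK-3, 4 were called higher in NK (Ctsw, Cst7, Serpinb9 and Gnptab) and 1 lower (Lamp1), beside 2.04% and 0.289% of all genes. Their median log2 ratio was 1.01, beside -0.66 over all genes. Serpinb9, the inhibitor that shields killer cells from their own granzyme B, had 497 CPM in NK, 12.6 in ILC2, and 23.8 and 15.4 in MNK-3 (log2 NK minus MNK-3 4.60, SE 0.459, adjusted p = 1.03e-20 by limma voom). It was also called against ILC2 (log2 5.30, SE 1.42, adjusted p = 0.0181). Ctsw, a cathepsin of NK and cytotoxic T cells, had 306 CPM in NK, 4.09 in ILC2, and 16.8 and 12.1 in MNK-3 (log2 4.33 against MNK-3, adjusted p = 1.55e-12). Ctsc, the protease that trims granzymes to their active form, was present in every library, at 176, 106, 79.4 and 94.8 CPM, and voom called it in no comparison. With factors from abundant genes 0 of the 16 were called between NK and MNK-3, and with median-of-ratios factors 2 were (Serpinb9b and Serpinb6b).

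Some granule genes were higher in ILC2 than in MNK-3, without high granzymes beside them. Against MNK-3, 4 genes of the list were called higher in ILC2 (Srgn, Calr, Serpinb6a and Cst7) and 2 lower (Igf2r and Lamp1), beside 2.37% and 0.902% of all genes. The list's median log2 ratio was -0.02 and that of all genes -0.88. Srgn encodes serglycin, the proteoglycan that binds granzymes in the granule, and had 639 CPM in ILC2, 230 in NK, and 95.9 and 132.5 in MNK-3. It was called higher in ILC2 than in MNK-3 (log2 2.54, adjusted p = 4.82e-19) and lower in NK than in ILC2 (log2 -1.47, adjusted p = 0.0138). Calr, a calcium-binding chaperone found in the granule with perforin, was likewise highest in ILC2, at 1974 CPM, and had 836 in NK and 467 and 675 in MNK-3. Serpinb6a, another inhibitor of this family, had 187 CPM in ILC2 and 27.0, 10.5 and 4.68 in NK and the MNK-3 libraries. Igf2r, a mannose 6-phosphate receptor that can carry granzymes to the granule, was at 84.0 CPM in ILC2 and between 320.4 and 468 in the other libraries. Between NK and ILC2, 3 genes were called higher in NK (Serpinb9, Serpinb6b and Igf2r) and 2 lower (Srgn and Calr), beside 0.819% and 0.479% of all genes, and the median log2 ratio was 0.05, beside 0.09 over all genes. Under TMM and median-of-ratios factors 0 of the 16 were called between NK and ILC2. Of the ILC2 calls against MNK-3, TMM left Serpinb6a, factors from abundant genes left Srgn and Calr, and median-of-ratios factors left none.

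**Figure D5:**
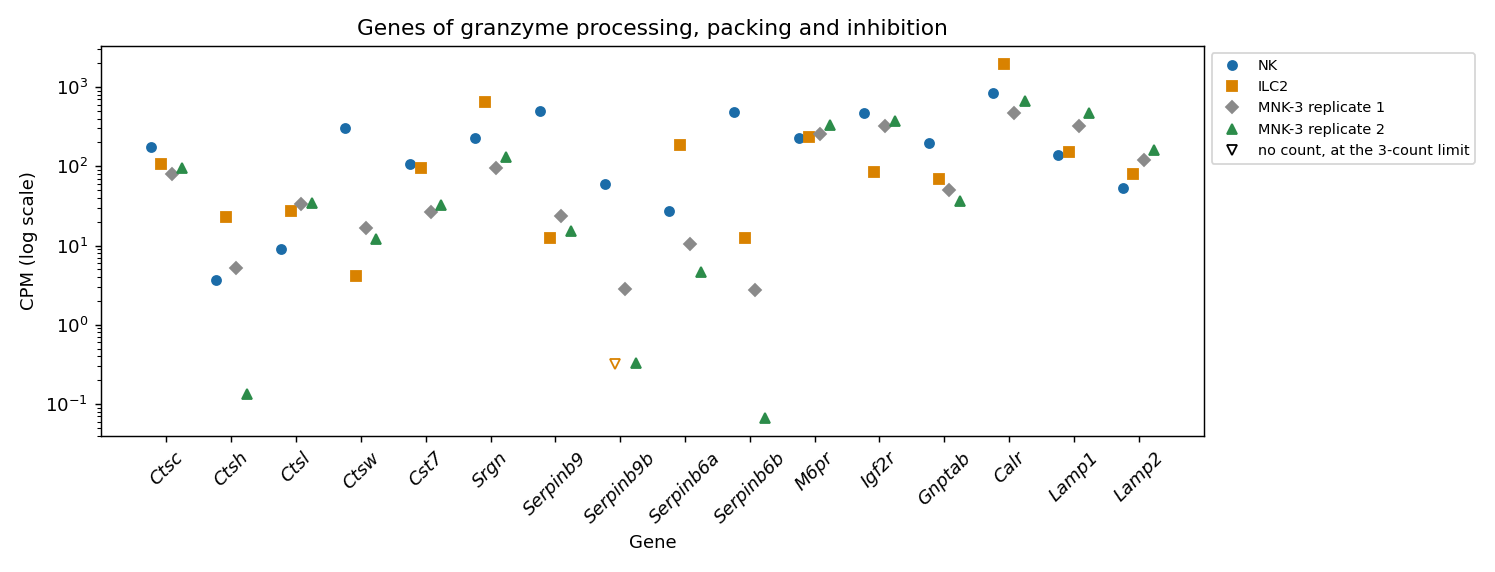
CPM (log axis) of the 16 genes that process, pack or restrain granzymes, 1 symbol for each library. Serpinb9 and Ctsw are highest in NK at 497 and 306 CPM, whereas Srgn, Calr and Serpinb6a are highest in ILC2 at 639, 1974 and 187 CPM.

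Genes for other ways of killing, listed together with activating receptors, did not move as a block. Of 8, Ncr1, an activating receptor, was called higher in NK than in MNK-3 (1114 CPM against 3.40 and 4.94, log2 8.18, SE 1.27, adjusted p = 2.13e-08 by limma voom), and none was called lower, beside 2.04% of all genes called higher and 0.289% lower. Klrk1, another activating receptor, had 943 CPM in NK, 0 in ILC2, and 3.12 and 0.132 in MNK-3 (adjusted p = 0.0737 against MNK-3). Tnfsf10, the death ligand TRAIL, was highest in ILC2, at 284 CPM, against 23.1 in NK and 23.5 and 6.13 in MNK-3, and was called against MNK-3 (log2 4.17, adjusted p = 1.55e-10). By size, Fasl, Ifng, Klrk1 and Ncr1 were higher in NK than in MNK-3 by 4-fold or more, and Tnf and Lta were lower. Of all genes, 1.65% were higher and 6.04% lower by that rule. Fasl, the ligand of the death receptor Fas, had 133 CPM in NK, 0.108 in ILC2, and 4.10 and 0.0659 in MNK-3. Ifng, which encodes interferon gamma, had 53.0 CPM in NK, 0.215 in ILC2, and 2.38 and 0 in MNK-3. Voom scaled by library totals called neither in any comparison, and with median-of-ratios factors it called Fasl between NK and MNK-3. The median log2 ratio of the 8 was 3.03 for NK over MNK-3, -2.66 for ILC2 over MNK-3 and 6.33 for NK over ILC2, beside -0.66, -0.88 and 0.09 over all genes. Voom called 0 of them between NK and ILC2, with 3 at an unadjusted p under 0.05, beside 0.819% of all genes called higher and 0.479% lower. Limma trend called 4 (Klrk1, Fcgr3 and Ncr1 higher in NK, Tnfsf10 lower), beside 2030 of 25283 genes (798 higher, 1232 lower). With factors from abundant genes voom called none of the 8 in any comparison.

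Of 10 transcription factors tied to these genes in cytotoxic lymphocytes, 6 were called higher in NK than in MNK-3 and none lower, beside 2.04% and 0.289% of all genes. Eomes and Tbx21, T-box factors that NK cells need, reached 905 and 465 CPM there. Eomes had 9.57 CPM in ILC2 and 27.5 and 29.8 in MNK-3 (log2 NK minus MNK-3 4.996, SE 0.373, adjusted p = 5.49e-37). Tbx21 had 2.37 CPM in ILC2 and 29.2 and 18.2 in MNK-3 (log2 4.24, adjusted p = 5.55e-20). Stat4, which acts below the IL-12 receptor, had 355 CPM in NK, 127 in ILC2, and 74.3 and 87.6 in MNK-3, and Prdm1 was the sixth called with Zeb2 and Id2. Zeb2 and Id2 were high in ILC2 too, at 489 and 828 CPM, and were called there against MNK-3 with Prdm1 and Nfil3, 4 of the 10 beside 2.37% of all genes. Of these 4 calls, TMM left Zeb2, factors from abundant genes left Id2, and median-of-ratios factors left none. Prdm1 was also lost with no filter and in the fit of the compared groups alone. Runx3, whose family's word stands near most of the granzyme starts, ranged from 237 to 422 CPM over the 4 libraries and was not called. Eomes and Stat4 were the 2 called higher in NK than in ILC2 (adjusted p = 0.0154 and 0.0447). The 6 calls between NK and MNK-3 became 4 under TMM and 0 under median-of-ratios factors or factors from abundant genes, and those between NK and ILC2 became 0 under all 3 and with no filter.

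The genes whose profile over the 4 libraries was closest to a member were found for Prf1, Gzmb and Gzmc among 13145 genes with at least 10 CPM in 1 library. Likeness is the Euclidean distance between centred log2(CPM + 0.5) profiles, and it is a description of 4 libraries. For Prf1 the closest were Tyrobp (1.32), Ccl5 (1.33), Klrd1 (1.66), Itgam (1.84) and Klrc1 (1.84). For Gzmb they were Eomes (0.643), Klf2 (0.690), Fos (0.967), Mctp2 (1.12) and Klrc3 (1.20). For Gzmc they were Yap1 (0.105), Rps6ka2 (0.256), Fermt2 (0.264), Smoc2 (0.297) and Serinc2 (0.349), all above 29 CPM in both MNK-3 libraries and below 6 CPM in NK and ILC2.

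Markers of other cells that carry granzymes were low in NK but not all absent. The 9 T cell markers summed to 91.0 CPM in NK, 16.2 in ILC2, and 219 and 143 in MNK-3. In NK, Cd8b1 had no read, Cd8a had 0.431 CPM and Cd3e 4.74, while Trbc1 had 38.6 and Cd3g 18.8. In MNK-3 replicate 1, Cd8a and Cd8b1 had 15.9 and 12.5 CPM, against 0.461 and 0.132 in replicate 2. Trbc1 had 84.5 CPM in MNK-3 replicate 1 and 115 in replicate 2, and Trac had 11.9 and 16.4. The other T cell markers were lower in replicate 2 than in replicate 1. The part of such cells in the granzyme levels was not tested.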

How the data were processed

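The submitters' processing notes name STAR 2.7.8a, HTSeq and the build mm10/GRCm38. The deposited values, in a unit recorded as other, are whole-number read counts per gene, not normalized, per the values themselves. Counting strand and gene set are not given in the sources used here. NK and ILC2 were counted over 53465 genes and MNK-3 over 31053. CPM was computed over the 30731 shared genes, leaving out 3.05% (NK), 1.89% (ILC2) and at most 0.131% (MNK-3) of the reads in genes. Entries naming no gene held 25.9% to 76.5% of reads and were left out.

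All 4 libraries entered 1 limma voom fit of 3 groups (limma 3.58.1, R 4.3.3), scaled by library totals, so 1 residual degree of freedom comes from MNK-3. The filter asked for 10 reads (rescaled for each library's size) in at least 1 library and 15 reads in total, and 25283 genes passed. Tests were two-sided. The fit was also run on simulated counts drawn with the same spread for all genes and libraries. That setting lacks the differences seen between the MNK-3 replicates, so it does not show how the fit behaves with them. The unit check did not accept the table format as counts, so edgeR was not used. The whole-number counts went into voom, which fits them on the log2 scale with precision weights. Sizes are log2(CPM + 0.5). Intervals are exact (Poisson, or Clopper-Pearson for ratios) at 95% and cover counting error only. Sequence words were searched in RefSeq promoters.

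The members and lists were chosen with earlier results of these data known. All 10 members were named, and of each other list up to 6 called genes and the 3 with the highest CPM, while genes outside that rule were named after their values were seen. Alternatives were other scalings, no filter, limma trend, other added CPM and leaving out each MNK-3 library.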

Additional observations from a re-analysis of the deposited data

How the results depend on the processing

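The 4 calls between NK and MNK-3 held under TMM and median-of-ratios factors, limma trend and a fit of the compared groups alone. They fell to 0 with factors from abundant genes and to 1 with no filter on low counts. Over these 6 alternatives the adjusted p ranged from 1.63e-27 to 1.00 for Prf1, 8.02e-28 to 1.00 for Gzma, 3.45e-26 to 1.00 for Gzmb and 0.000193 to 1.00 for Nkg7. The log2 difference stayed positive, from 9.40 to 9.77, 10.12 to 11.05, 5.70 to 6.19 and 8.05 to 8.80 in that order. Between NK and ILC2, 0 members were called in the main fit and 4 by limma trend.

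Counts over all genes depended on the settings. Between NK and MNK-3, 590 genes were called (517 higher in NK, 73 lower). TMM gave 132 (130 and 2), median-of-ratios 99 (all higher), abundant genes 87 (all higher), no filter 389, and limma trend 3058 (851 and 2207). Between ILC2 and MNK-3, 828 were called (600 higher in ILC2, 228 lower), with 83 (82 and 1), 50 (all higher) and 244 (221 and 23) under those 3 scalings and 2247 (765 and 1482) by limma trend. Between NK and ILC2, 328 were called (207 higher in NK, 121 lower), with 0, 0 and 40 (32 and 8) under the scalings, 183 with no filter and 2030 (798 and 1232) by limma trend. The cause was not tested. The all-gene median log2 ratio of NK to MNK-3 was -0.66 by library totals, -0.48 by TMM, -0.27 by median-of-ratios and -0.74 by abundant genes. For ILC2 to MNK-3 it was -0.88, -0.56, -0.36 and -0.94.

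The members' median ranged from -0.35 to 2.72 for NK over MNK-3 when each MNK-3 library was left out in turn, and from -1.82 to -0.73 for ILC2 over MNK-3. The all-gene median moved too, from -1.11 to 0 for NK over MNK-3 and from -1.30 to 0 for ILC2 over MNK-3. With other amounts added to CPM the members' median moved as well. It was -3.04 for ILC2 over MNK-3 with 0.1 CPM added and 1.94 for NK over ILC2 with 2 CPM added, against -1.38 and 3.24. The members lower in ILC2 by 4-fold or more numbered 1 to 2 without each MNK-3 library, a count chosen after seeing the data. No call changed direction, while the members' median for NK over MNK-3 changed sign without MNK-3 replicate 2, where the all-gene median was -1.11. Gzmc, Gzmd, Gzme and Gzmf had 3 reads or fewer in NK. No paired analysis was possible because NK and ILC2 have 1 library each.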
